A study of Mus musculus with 10 samples.

Results

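Pyruvate stands at a branch point of fat cell metabolism, and 10 genes that govern where it goes were followed here in RNA-seq of mouse brown preadipocyte cultures: Pdha1, Pdhb and Dlat of the pyruvate dehydrogenase complex, its kinases Pdk1, Pdk2, Pdk3 and Pdk4, the lactate dehydrogenase genes Ldha and Ldhb, and Pcx, which encodes pyruvate carboxylase. They were taken by symbol, 10 of the 22835 gene names in the tables, and all 10 were present and passed the minimum level in every comparison. With 4OHT, 9 of the 10 were lower by 2-fold or more in LSL-K4M cells and 8 of the 10 in Mll3/4SET cells. Pdk3 alone went the other way in both lines, with more reads in the 4OHT library than in the mock library. On the log2(RPKM + 1) scale Pcx showed the largest difference in each line. It was -4.41 in Mll3/4SET and -1.97 in LSL-K4M, there close to Pdhb (-1.92) and Pdk4 (-1.85). As a ratio of RPKM, Pcx was 23.7-fold lower in Mll3/4SET 4OHT and 3.93-fold lower in LSL-K4M 4OHT. By that ratio Pdk4 differed more in LSL-K4M (4.74-fold lower).

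The 4 RNA libraries are LSL-K4M 4OHT, LSL-K4M mock, Mll3/4SET 4OHT and Mll3/4SET mock, 1 library per group. All come from interscapular brown fat preadipocytes of newborn mice that carry CreER, a recombinase switched on by 4-hydroxytamoxifen (4OHT), and that were immortalised by a retrovirus encoding SV40 large T antigen. In LSL-K4M;CreER cells the drug turns on histone H3.3 with methionine in place of lysine 4 (H3.3K4M), and in Mll3f/f;Mll4SETf/f;CreER cells it removes floxed parts of the H3K4 methyltransferase genes Mll3 and Mll4, for Mll4 the catalytic SET domain. Mock cells of both lines carry the same alleles and CreER but had no 4OHT. All groups were induced to differentiate with insulin (0.02 µM), the thyroid hormone T3 (1 nM), IBMX (0.5 mM), dexamethasone (2 µg/ml) and indomethacin (0.125 mM). The stage label and the table headers put all 4 libraries at day 7, but the 4OHT libraries of both lines are titled day 0, so the stage of those libraries is in doubt, and an effect of stage and one of 4OHT cannot be told apart if the titles hold. The sources used here do not say whether each immortalised line is 1 clone, nor when 4OHT was added.

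Summed over 1 transcript per gene, the libraries held 15209607 to 16719658 reads. With 1 library per group no difference has a replicate check, and no test or p-value is given. Levels are RPKM, the authors' scaling of reads to the length of the transcript and the depth of the library. A gene was measured in a comparison if the library with the larger value reached 1 RPKM, and counted as lower or higher if log2(RPKM + 1) differed by 2-fold; adding 1 shrinks the differences of weakly expressed genes. Fold values are ratios of RPKM, and brackets give exact 95% binomial intervals from the read counts, for counting error alone. The transcripts that the alleles concern gave little check of the labels. Mll3 was at 4.09 RPKM in LSL-K4M 4OHT against 5.17 in LSL-K4M mock, and at 5.46 in Mll3/4SET 4OHT against 7.48 in Mll3/4SET mock. Mll4, listed as Mll2, was at 10.2 RPKM in LSL-K4M 4OHT against 9.31 in LSL-K4M mock, and at 12.2 in Mll3/4SET 4OHT against 13.6 in Mll3/4SET mock. Of the H3.3 genes, H3f3a was at 17.6 RPKM in LSL-K4M 4OHT against 19.0 in LSL-K4M mock and at 15.3 in Mll3/4SET 4OHT against 20.7 in Mll3/4SET mock, and H3f3b was at 162 RPKM in LSL-K4M 4OHT against 166 in LSL-K4M mock and at 132 in Mll3/4SET 4OHT against 212 in Mll3/4SET mock. Neither was higher in LSL-K4M 4OHT, and how reads of the H3.3K4M transgene were counted is not stated. Loss of a few exons would not be seen in reads summed over a transcript.

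Pyruvate dehydrogenase is the mitochondrial complex that turns pyruvate into acetyl-CoA. Its first enzyme (E1) is built from the products of Pdha1 and Pdhb, and Dlat encodes its second enzyme (E2). The PDK kinases phosphorylate the E1 alpha subunit and switch the complex off, so that pyruvate is spared for other routes. Lactate dehydrogenase interconverts pyruvate and lactate, and pyruvate carboxylase makes oxaloacetate, which in fat cells feeds both the citrate that leaves mitochondria for fatty acid synthesis and the glycerol backbone of triglycerides. Brown fat is rich in these mitochondrial enzymes, and several of them increase as preadipocytes become adipocytes.

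Adipocyte markers were lower in both 4OHT libraries. Their 8 genes summed to 1753 RPKM in LSL-K4M 4OHT against 6409 in LSL-K4M mock, and to 75.5 RPKM in Mll3/4SET 4OHT against 7132 in Mll3/4SET mock, and 8 of 8 were lower in each line. The 6 brown adipocyte markers summed to 12.0 RPKM in LSL-K4M 4OHT against 67.7 in LSL-K4M mock, and to 3.38 in Mll3/4SET 4OHT against 77.1 in Mll3/4SET mock. Most of these sums was Cox7a1, a mitochondrial subunit gene, at 9.50 RPKM in LSL-K4M 4OHT against 50.9 in LSL-K4M mock and at 1.76 in Mll3/4SET 4OHT against 68.0 in Mll3/4SET mock. Ucp1, the uncoupling protein that defines brown fat, was at 0.0793 RPKM (3 reads) in LSL-K4M 4OHT against 3.58 (127 reads) in LSL-K4M mock. In Mll3/4SET it was at 0.0561 RPKM (2 reads) with 4OHT against 1.45 (53 reads) in mock. Of the brown markers measured, 4 of 5 were lower in LSL-K4M and 3 of 4 in Mll3/4SET. Prdm16 was under the limit in both, at 1.12 RPKM in LSL-K4M 4OHT against 2.74 in mock and at 1.32 in Mll3/4SET 4OHT against 1.73 in mock. Smooth muscle and myofibroblast markers ran the other way, 6 of 6 higher in each line, with sums of 2045 RPKM in LSL-K4M 4OHT against 417 in LSL-K4M mock and of 1061 in Mll3/4SET 4OHT against 229.5 in Mll3/4SET mock. Of the skeletal muscle list, 1 of 11 genes was measured, Acta1. It was 3.28-fold higher (2.63 to 4.12) in LSL-K4M 4OHT and 3.23-fold higher (2.31 to 4.59) in Mll3/4SET 4OHT. Myod1, Myog, Myf5, Myf6, Myh1 and Myh4 had 0 reads in all 4 libraries. Macrophage and leukocyte markers summed to 5.82 RPKM in LSL-K4M 4OHT against 8.41 in LSL-K4M mock and to 3.24 in Mll3/4SET 4OHT against 7.30 in Mll3/4SET mock. Mpeg1 differed most, at 0.902 RPKM in LSL-K4M 4OHT against 4.60 in mock and at 0.245 in Mll3/4SET 4OHT against 3.32 in mock. Cd68 was at 1.55 RPKM (36 reads) in LSL-K4M 4OHT against 0.460 (10 reads) in mock, and at 1.05 in Mll3/4SET 4OHT against 1.11 in mock. Cd14 was at 3.05 RPKM in LSL-K4M 4OHT against 2.82 in mock, and at 1.73 in Mll3/4SET 4OHT against 2.67 in mock. All were under the limit. The intervals of the 4OHT over mock ratio held 1 for Cd68 in Mll3/4SET (0.512 to 1.73) and for Cd14 in LSL-K4M (0.809 to 1.45). Endothelial markers summed to 0.684 RPKM or less, with Cdh5 and Tie1 at 0 reads in all 4 libraries. In both lines the adipocyte and brown adipocyte sums were lower with 4OHT, as were 9 of the 10 genes, and the smooth muscle and myofibroblast sum was higher. What part these marker differences have in those of the 10 genes was not tested. In cultures measured in bulk, fewer cells of a type and less RNA per cell cannot be told apart.

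The counts over the 10 genes can be read against all measured genes. The 10 genes were chosen with earlier results of these data known, so this comparison is not a test of the set. In LSL-K4M 9 of the 10 genes were lower and none was higher, while 6.19% of all 12179 measured genes were lower and 5.26% higher. In Mll3/4SET 8 of 10 were lower and none higher, while 7.41% of 12184 measured genes were lower and 5.18% higher. The median log2 difference of the 10 genes was -1.56 in LSL-K4M, where that of all measured genes was 0.10, and -1.74 in Mll3/4SET, where it was 0.12. Of all calls, 54.1% in LSL-K4M and 58.9% in Mll3/4SET were lower. With TMM scaling of the libraries these shares were 65.9% and 69.9%, and the medians over all genes moved to -0.01 in both lines, with the counts of the 10 genes as before. In reads, the 10 genes together made up 0.199% (0.196 to 0.201) of the LSL-K4M 4OHT library against 0.622% (0.618 to 0.626) of the LSL-K4M mock library. They made up 0.0768% (0.0754 to 0.0782) of the Mll3/4SET 4OHT library against 0.329% (0.327 to 0.332) of the Mll3/4SET mock library, with exact Clopper-Pearson intervals.

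**Figure D1:**
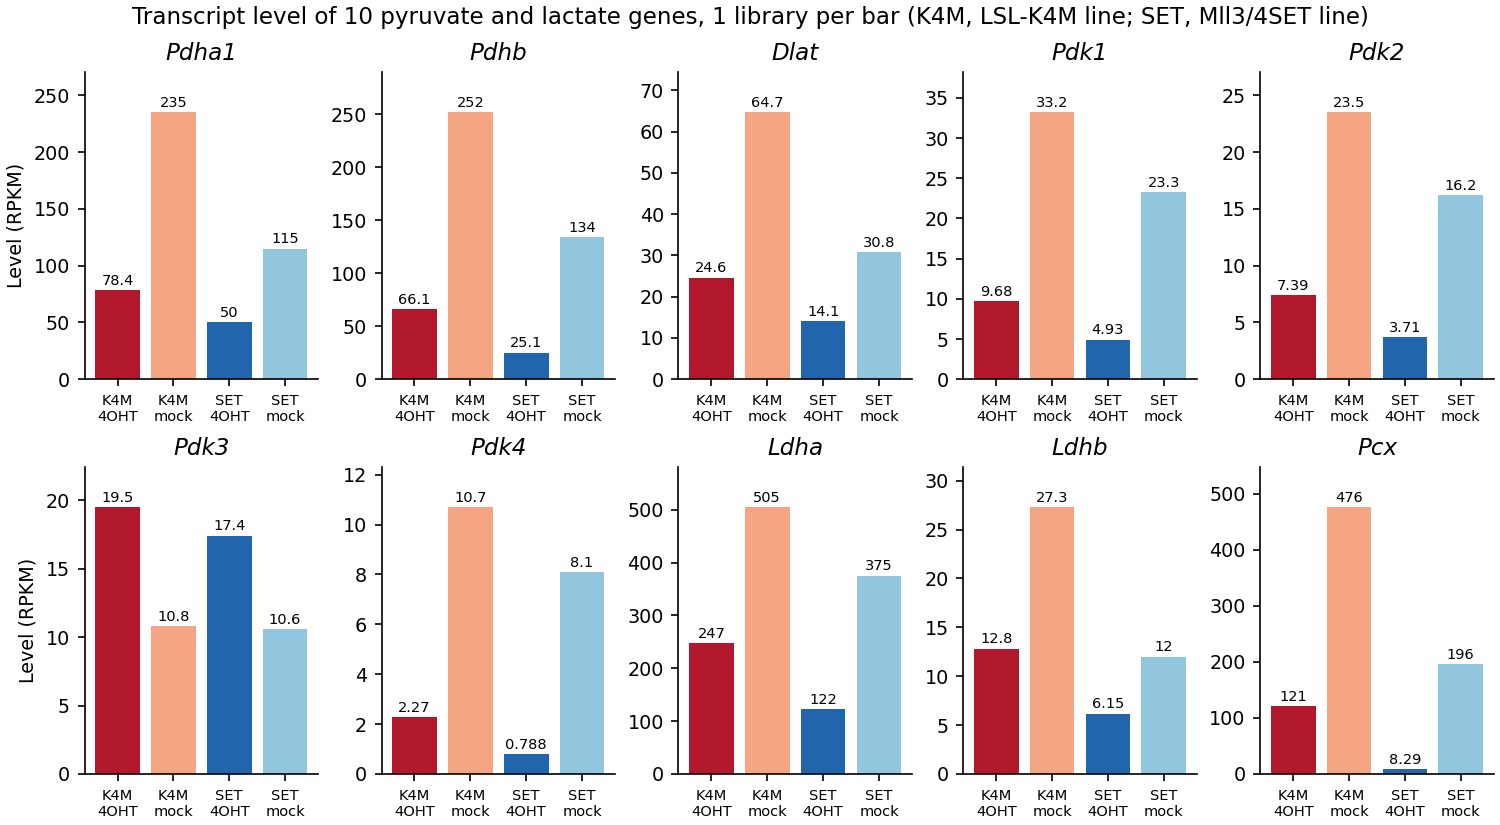
RPKM of the 10 genes, 1 panel per gene with an axis of its own from 0, in LSL-K4M 4OHT, LSL-K4M mock, Mll3/4SET 4OHT and Mll3/4SET mock, 1 library each. Pdk3 alone is higher in the 4OHT library of both lines, and the largest fold is that of Pcx in Mll3/4SET, at 8.29 RPKM with 4OHT against 196 in mock.

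Both E1 genes and the E2 gene were lower in both lines. Pdha1, which encodes the E1 alpha subunit that the kinases phosphorylate, was at 78.4 RPKM in LSL-K4M 4OHT against 235 in LSL-K4M mock, and at 50.0 RPKM in Mll3/4SET 4OHT against 115 in Mll3/4SET mock. The ratio was 2.99-fold lower (2.90 to 3.09) in LSL-K4M and 2.30-fold lower (2.21 to 2.41) in Mll3/4SET. Pdhb, which encodes E1 beta, was at 66.1 RPKM in LSL-K4M 4OHT against 252 in LSL-K4M mock, and at 25.1 RPKM in Mll3/4SET 4OHT against 134 in Mll3/4SET mock. It was lower by a larger factor than Pdha1 in each line, 3.81-fold (3.64 to 4.00) and 5.36-fold (4.97 to 5.79). Dlat, the E2 gene, was at 24.6 RPKM in LSL-K4M 4OHT against 64.7 in LSL-K4M mock, and at 14.1 RPKM in Mll3/4SET 4OHT against 30.8 in Mll3/4SET mock, 2.63-fold (2.51 to 2.77) and 2.19-fold lower (2.05 to 2.34).

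The proportions of these transcripts were therefore not the same in all libraries. E1 holds its alpha and beta subunits in equal number. Pdhb over Pdha1, in RPKM, was 0.843 (0.802 to 0.886) in LSL-K4M 4OHT against 1.07 (1.04 to 1.10) in LSL-K4M mock, and 0.501 (0.463 to 0.542) in Mll3/4SET 4OHT against 1.17 (1.12 to 1.21) in Mll3/4SET mock. The E1 genes were thus closer to even in the mock library of each line. Dlat over Pdha1 varied less, at 0.313 in LSL-K4M 4OHT against 0.276 in LSL-K4M mock and at 0.281 in Mll3/4SET 4OHT against 0.267 in Mll3/4SET mock. Summed, the E1 and E2 genes were 3.26-fold lower in LSL-K4M, at 169 RPKM with 4OHT against 551 in mock, and 3.15-fold lower in Mll3/4SET, at 89.1 RPKM with 4OHT against 280.4 in mock. Pdha1 has an intronless copy, Pdha2, and reads shared between such copies may have been split in the counting.

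The 4 kinase genes did not share a direction. Pdk1, Pdk2 and Pdk4 were lower in both 4OHT libraries and Pdk3 was higher, though under the 2-fold limit. Pdk1, a kinase gene known as a target of hypoxia-inducible factor (HIF), was at 9.68 RPKM in LSL-K4M 4OHT against 33.2 in LSL-K4M mock, and at 4.93 RPKM in Mll3/4SET 4OHT against 23.3 in Mll3/4SET mock. That was 3.43-fold lower (3.21 to 3.67) in LSL-K4M and 4.73-fold lower (4.32 to 5.20) in Mll3/4SET. Pdk2, the most widely expressed of the kinases across tissues, was at 7.39 RPKM in LSL-K4M 4OHT against 23.5 in LSL-K4M mock, and at 3.71 RPKM in Mll3/4SET 4OHT against 16.2 in Mll3/4SET mock. Its ratios, 3.17-fold (2.83 to 3.57) and 4.36-fold lower (3.71 to 5.15), were near those of Pdk1.

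Pdk4 is the kinase gene induced by fasting, by glucocorticoids and by PPAR receptors. It was at 2.27 RPKM (180 reads) in LSL-K4M 4OHT against 10.7 RPKM (800 reads) in LSL-K4M mock, and at 0.788 RPKM (59 reads) in Mll3/4SET 4OHT against 8.10 RPKM (623 reads) in Mll3/4SET mock. It was 4.74-fold lower (4.03 to 5.60) in LSL-K4M and 10.3-fold lower (7.86 to 13.7) in Mll3/4SET, the largest ratio among the kinases in each line. The 59 reads are the fewest of any of the 10 genes in any library, so this ratio carries the widest counting interval.

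Pdk3, whose product is a kinase of high activity that is little held back by pyruvate, was at 19.5 RPKM (898 reads) in LSL-K4M 4OHT against 10.8 RPKM (465 reads) in LSL-K4M mock. In Mll3/4SET it was at 17.4 RPKM (755 reads) with 4OHT against 10.6 RPKM (472 reads) in mock. Both 4OHT libraries were above both mock libraries, by 1.81-fold (1.62 to 2.03) in LSL-K4M and 1.64-fold (1.46 to 1.85) in Mll3/4SET. The log2 differences, 0.80 and 0.67, were above those of 90.9% and 87.0% of measured genes. With TMM scaling they were 0.68 and 0.53.

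**Figure D2:**
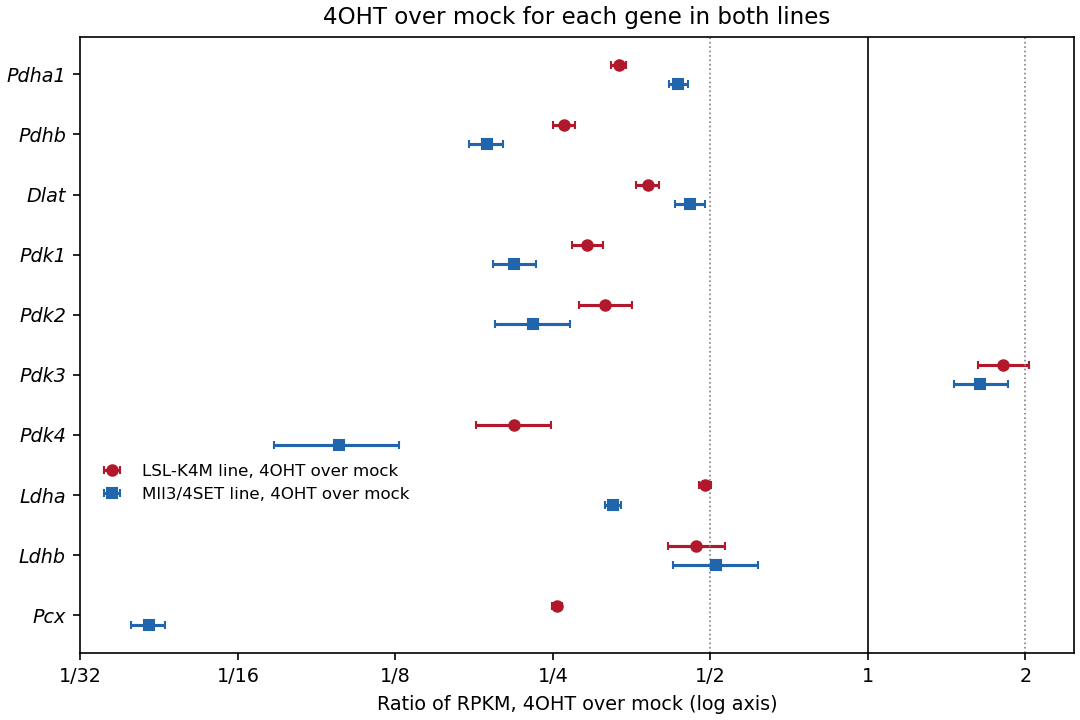
Ratio of RPKM, 4OHT over mock, of each of the 10 genes in LSL-K4M and in Mll3/4SET on a log axis, with exact 95% intervals of the reads (counting error only). Pdk3 lies above 1 in both lines (1.81 and 1.64) and the other 9 genes lie below it.

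The kinase genes summed to less RPKM with 4OHT while their make-up differed. The sum was 38.8 RPKM in LSL-K4M 4OHT against 78.2 in LSL-K4M mock, 2.01-fold lower, and 26.8 RPKM in Mll3/4SET 4OHT against 58.2 in Mll3/4SET mock, 2.17-fold lower. Within that sum Pdk3 held 50.2% in LSL-K4M 4OHT against 13.8% in LSL-K4M mock, and 64.9% in Mll3/4SET 4OHT against 18.2% in Mll3/4SET mock. Counted in reads not scaled to length, the Pdk3 share was 34.4% (32.6 to 36.3, exact Clopper-Pearson) in LSL-K4M 4OHT against 7.63% (6.98 to 8.33) in LSL-K4M mock, and 48.9% (46.3 to 51.4) in Mll3/4SET 4OHT against 10.3% (9.44 to 11.2) in Mll3/4SET mock. Pdk3 led the kinases in both 4OHT libraries and Pdk1 in both mock libraries. The Pdk1 share of kinase RPKM was 24.9% in LSL-K4M 4OHT against 42.5% in LSL-K4M mock, and 18.4% in Mll3/4SET 4OHT against 40.1% in Mll3/4SET mock.

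Pairs of kinases show the same change of order. Pdk3 over Pdk1 was 2.02 (1.85 to 2.20) in LSL-K4M 4OHT against 0.324 (0.294 to 0.357) in LSL-K4M mock, and 3.53 (3.16 to 3.95) in Mll3/4SET 4OHT against 0.454 (0.411 to 0.501) in Mll3/4SET mock. Such ratios within a library do not depend on how the libraries were scaled. The kinase sum came to 53.8% of the mean RPKM of Pdha1 and Pdhb in LSL-K4M 4OHT against 32.1% in LSL-K4M mock. In Mll3/4SET it came to 71.5% with 4OHT against 46.6% in mock. Pdha1, which encodes the subunit that the kinases phosphorylate, was 2.99-fold lower in LSL-K4M, where the kinase sum was 2.01-fold lower. In Mll3/4SET Pdha1 was 2.30-fold lower, near the 2.17-fold of the kinase sum, while Pdhb was 5.36-fold lower. These are transcript levels, and neither kinase activity nor phosphorylation of the complex was measured.

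**Figure D3:**
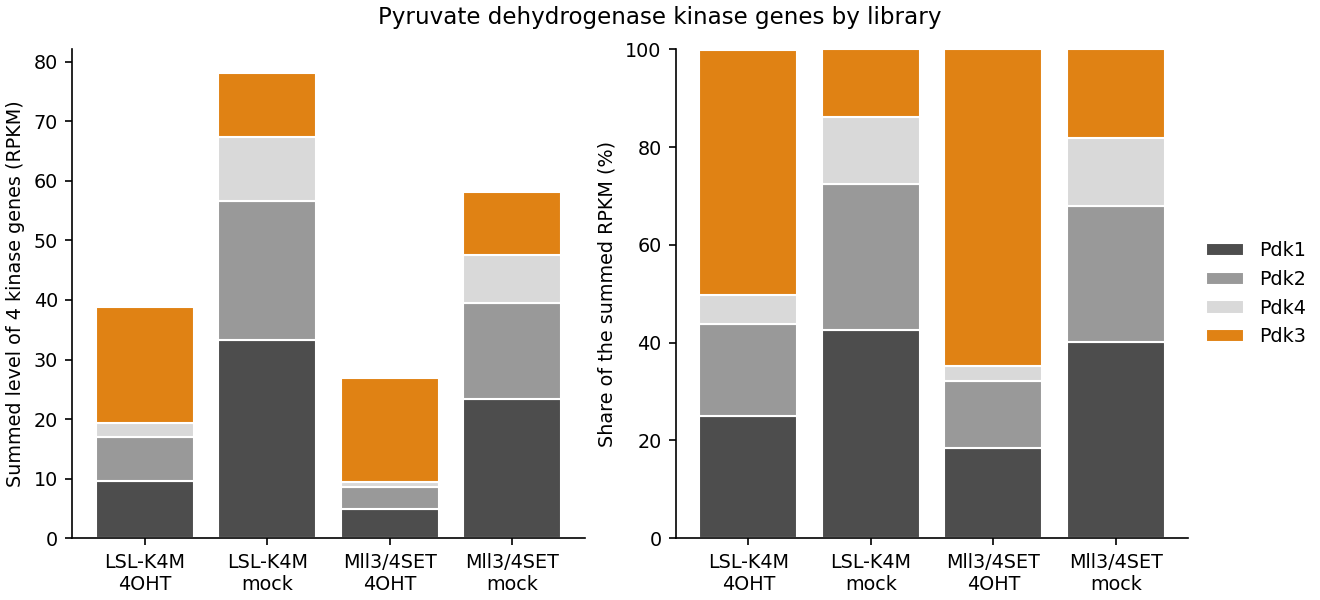
Left, RPKM of Pdk1, Pdk2, Pdk3 and Pdk4 stacked per library (1 library per bar); right, the share of each gene in that sum in percent. The sum is lower with 4OHT in both lines, while Pdk3 takes 50.2% of it in LSL-K4M 4OHT and 64.9% in Mll3/4SET 4OHT, against 13.8% and 18.2% in the mock libraries of these lines.

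The upstream sequences of the kinase genes are shown because Pdk3 went another way than the other kinases, and because HIF is known to act on Pdk1. Each run is the 250 bases before the annotated start that lies nearest the gene's start, from RefSeq on GRCm38.p6, in the direction of the gene; the deposited tables were made on mm9, and the coordinates were not used with them. Capitals mark the HIF core letters ACGTG and GCGTG on either strand, which read CACGT and CACGC from the other one; matches may overlap, as in CACGTG, which counts once on each strand.
Pdk1 (chr2:71872974-71873223, plus strand): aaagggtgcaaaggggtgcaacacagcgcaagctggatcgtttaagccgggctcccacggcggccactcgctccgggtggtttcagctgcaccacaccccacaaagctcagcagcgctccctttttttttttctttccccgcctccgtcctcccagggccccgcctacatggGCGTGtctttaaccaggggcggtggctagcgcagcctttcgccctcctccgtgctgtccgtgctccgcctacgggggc
Pdk2 (chr11:95041372-95041621, minus strand): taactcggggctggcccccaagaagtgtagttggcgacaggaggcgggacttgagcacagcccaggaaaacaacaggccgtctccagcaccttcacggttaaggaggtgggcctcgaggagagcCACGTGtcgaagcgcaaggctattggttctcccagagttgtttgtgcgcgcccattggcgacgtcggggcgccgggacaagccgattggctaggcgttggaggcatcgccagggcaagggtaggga
Pdk3 (chrX:93832151-93832400, minus strand): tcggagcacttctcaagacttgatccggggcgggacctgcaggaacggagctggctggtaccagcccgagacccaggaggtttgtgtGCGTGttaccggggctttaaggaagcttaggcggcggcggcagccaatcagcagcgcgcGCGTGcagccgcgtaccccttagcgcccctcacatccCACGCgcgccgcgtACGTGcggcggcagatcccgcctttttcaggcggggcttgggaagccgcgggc
Pdk4 (chr6:5496279-5496528, minus strand): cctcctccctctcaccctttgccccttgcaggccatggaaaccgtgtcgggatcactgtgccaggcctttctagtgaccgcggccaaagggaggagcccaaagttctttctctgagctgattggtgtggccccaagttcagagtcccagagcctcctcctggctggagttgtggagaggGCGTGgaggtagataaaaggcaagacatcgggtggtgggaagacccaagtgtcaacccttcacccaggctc
The Pdk3 window holds 4 matches (1 ACGTG and 3 GCGTG), more than Pdk1 (1), Pdk2 (2) or Pdk4 (1). At least 1 match stands in each of the 4 windows, but the windows of the other annotated starts of Pdk1 and Pdk2, not shown, hold neither core. A match is only a match of letters, and no binding was measured here.

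Ldha was the most abundant of the 10 transcripts in all 4 libraries. It encodes the M subunit of lactate dehydrogenase, the form that favours making lactate, and was at 247 RPKM in LSL-K4M 4OHT against 505 in LSL-K4M mock, and at 122 RPKM in Mll3/4SET 4OHT against 375 in Mll3/4SET mock. It was 2.05-fold lower (2.00 to 2.10) in LSL-K4M, just past the limit, and 3.07-fold lower (2.96 to 3.17) in Mll3/4SET. The other Ldha row of the tables gave 212 RPKM in LSL-K4M 4OHT against 435 in LSL-K4M mock, and 105 in Mll3/4SET 4OHT against 318 in Mll3/4SET mock. Ldha has many processed copies in the mouse genome, so its count is uncertain to the extent that reads were shared with them.

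Ldhb, which encodes the H subunit of tissues that use lactate, was at 12.8 RPKM in LSL-K4M 4OHT against 27.3 in LSL-K4M mock, 2.13-fold lower (1.88 to 2.42). In Mll3/4SET it was at 6.15 RPKM with 4OHT against 12.0 in mock, 1.95-fold lower (1.62 to 2.36), with a log2 difference of -0.86 that missed the limit. Ldha took 95.1% of the summed RPKM of both genes in LSL-K4M 4OHT against 94.9% in LSL-K4M mock, and 95.2% in Mll3/4SET 4OHT against 96.9% in Mll3/4SET mock. Ldha over Ldhb was 19.2 (17.3 to 21.3) in LSL-K4M 4OHT against 18.5 (17.2 to 19.9) in LSL-K4M mock, intervals that overlap. It was 19.9 (17.0 to 23.3) in Mll3/4SET 4OHT against 31.2 (28.0 to 34.8) in Mll3/4SET mock, intervals that do not. Ldha over Pdha1 was higher in LSL-K4M 4OHT and lower in Mll3/4SET 4OHT than in the mock library of the line, at 3.15 in LSL-K4M 4OHT against 2.15 in LSL-K4M mock and at 2.44 in Mll3/4SET 4OHT against 3.25 in Mll3/4SET mock.

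Pcx was the second most abundant of the 10 transcripts in every library but Mll3/4SET 4OHT, where it stood in place 6. It was at 121 RPKM (11481 reads) in LSL-K4M 4OHT against 476 RPKM (42332 reads) in LSL-K4M mock, 3.93-fold lower (3.85 to 4.01). In Mll3/4SET it was at 8.29 RPKM (741 reads) with 4OHT against 196 RPKM (18041 reads) in mock, 23.7-fold lower (22.0 to 25.5). Its log2 difference was below those of all but 1.12% of measured genes in LSL-K4M and all but 0.402% in Mll3/4SET. Set against the E1 alpha gene, Pcx over Pdha1 was 1.54 in LSL-K4M 4OHT against 2.03 in LSL-K4M mock, and 0.166 in Mll3/4SET 4OHT against 1.71 in Mll3/4SET mock. The tables hold 2 rows for Pcx, which share nearly all their reads: the other row had 749 reads in Mll3/4SET 4OHT and 18178 in Mll3/4SET mock, so which start was used cannot be told.

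The upstream sequences of Ldha and Pcx are given for the lactate gene known as a HIF target and for the gene with the largest log2 difference, by the same source, build and capitals as for the kinases. Pcx is shown at its first start and at another annotated start downstream.
Ldha (chr7:46845554-46845803, plus strand): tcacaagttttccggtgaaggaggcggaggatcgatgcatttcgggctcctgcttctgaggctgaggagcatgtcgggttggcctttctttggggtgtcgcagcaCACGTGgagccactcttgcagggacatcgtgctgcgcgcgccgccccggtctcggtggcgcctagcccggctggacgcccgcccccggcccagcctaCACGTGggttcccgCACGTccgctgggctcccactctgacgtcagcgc
Pcx, first start (chr19:4510222-4510471, plus strand): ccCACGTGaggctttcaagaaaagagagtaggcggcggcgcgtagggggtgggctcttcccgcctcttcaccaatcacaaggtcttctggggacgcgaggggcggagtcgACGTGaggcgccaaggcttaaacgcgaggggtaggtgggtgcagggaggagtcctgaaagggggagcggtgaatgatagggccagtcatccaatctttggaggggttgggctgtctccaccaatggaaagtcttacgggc
Pcx, downstream start (chr19:4594069-4594318, plus strand): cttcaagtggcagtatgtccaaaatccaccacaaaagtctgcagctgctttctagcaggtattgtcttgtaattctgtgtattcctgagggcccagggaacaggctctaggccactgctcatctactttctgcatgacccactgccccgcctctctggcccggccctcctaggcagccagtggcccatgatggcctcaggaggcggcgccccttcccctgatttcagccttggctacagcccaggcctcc
The Ldha window shown holds 5 ACGTG matches and the first Pcx start 3, with overlapping pairs in CACGTG, while the downstream Pcx start holds neither core. The window of the other annotated Ldha start, not shown, holds 1 GCGTG match and no ACGTG. Of 27025 promoters of that length, 38.6% hold either core, and 9 of the 10 genes do. ACGTG alone is in 16.5% of promoters and in 5 of 10 of these genes, and GCGTG in 28.3% and 6 of 10. CCAAT was found in 34.5% of promoters and 6 of 10 of these genes, and AGGTCA, the core of the repeat that PPAR and related nuclear receptors bind, in 13.8% and 1 of 10. These windows are rich in G and C, from 58.8% in Pdk4 to 67.6% in Pdk3 among the kinases, and the shares over all promoters were not matched for that.

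Of 5297 other genes at 10 RPKM or more on average, predicted and small RNA genes left out, those whose levels in the 4 libraries ran most like Pcx, by the Euclidean distance of mean-centred log2(RPKM + 1), included Mgll and Slc36a2. Mgll, which encodes monoglyceride lipase, an enzyme of fat breakdown, was at 20.2 RPKM in LSL-K4M 4OHT against 73.6 in LSL-K4M mock and at 0.703 in Mll3/4SET 4OHT against 41.2 in Mll3/4SET mock (distance 0.325). Slc36a2, an amino acid transporter known as a marker of brown fat, stood at a distance of 0.448. These likenesses rest on 4 libraries.

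The lines differed in how far the genes were lower. The ratio of ratios sets the 4OHT-over-mock ratio of Mll3/4SET over that of LSL-K4M, with an approximate 95% interval from the 4 read counts. For Pcx it was 0.166 (0.154 to 0.179), so the fold by which Pcx was lower was 6.03 times as large in Mll3/4SET (5.59 to 6.51). For Pdk4 it was 0.461 (0.337 to 0.630), a fold 2.17 times as large (1.59 to 2.96). Pcx and Pdk4 were the 2 of 10 past the 2-fold limit, where 5.05% of 11790 genes measured in both lines were smaller by that size and 1.63% larger. Pdhb (0.711), Pdk1 (0.725), Pdk2 (0.728) and Ldha (0.668) also had the lower ratio in Mll3/4SET, with intervals below 1. Pdha1 (1.30, 1.23 to 1.37) and Dlat (1.20, 1.11 to 1.31) had it in LSL-K4M. The intervals of Pdk3 (0.907, 0.773 to 1.07) and Ldhb (1.09, 0.875 to 1.36) held 1. Since there is 1 library per group, no interaction over samples could be tested.

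The mock libraries of the lines also differed, with the caution that their tables were normalised separately. All 10 genes were lower in Mll3/4SET mock than in LSL-K4M mock, 4 of them by 2-fold or more, where 3.18% of 12027 genes were lower by that size and 1.82% higher. The 4 were Pcx (2.42-fold, 2.38 to 2.46), Ldhb (2.28-fold, 2.00 to 2.59), Dlat (2.10-fold, 2.01 to 2.20) and Pdha1 (2.04-fold, 1.98 to 2.10). The median log2 difference of the 10 genes was -0.71, against 0.00 over all genes. Pdk3 was nearly equal in the mock libraries, at 10.6 RPKM in Mll3/4SET mock and 10.8 in LSL-K4M mock (1.02-fold lower, 0.892 to 1.16). Between the 4OHT libraries 3 of 10 were lower in Mll3/4SET and none higher, where 3.92% of 12079 genes were lower and 1.73% higher. They were Pcx (14.6-fold, 13.5 to 15.7), Pdhb (2.64-fold, 2.43 to 2.86) and Ldha (2.02-fold, 1.95 to 2.09).

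The order of the levels within a library was clear of counting error except at 2 places. Pdk3 and Pdk4 stood level in LSL-K4M mock (ratio 1.00, 0.893 to 1.13), and Ldhb and Pdk3 in Mll3/4SET mock (1.13, 0.983 to 1.30). From the top, Pdk3 held place 6 of the 10 in LSL-K4M 4OHT against place 9 in LSL-K4M mock, and place 4 in Mll3/4SET 4OHT against place 9 in Mll3/4SET mock.

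Among the other genes of the pyruvate dehydrogenase complex, its phosphatases and lipoylation, the E3 gene and the gene of its tether were lower in both lines. Of 9 genes, 2 were lower in each line and none higher, with medians of -0.55 (LSL-K4M) and -0.54 (Mll3/4SET). The lower ones were Dld and Pdhx in both lines. Dld encodes the E3 enzyme that is shared with the other 2-oxoacid dehydrogenases, and was at 49.5 RPKM in LSL-K4M 4OHT against 109.0 in LSL-K4M mock and at 47.4 in Mll3/4SET 4OHT against 104.0 in Mll3/4SET mock, 2.20-fold lower in each (2.10 to 2.30 and 2.10 to 2.31). Pdhx, which tethers E3 to the complex, was 2.14-fold (1.95 to 2.35) and 2.17-fold lower (1.95 to 2.42). Pdp1, the gene of a phosphatase that undoes the kinases' work, stayed under the limit. It was at 6.10 RPKM in LSL-K4M 4OHT against 4.04 in LSL-K4M mock and at 4.00 in Mll3/4SET 4OHT against 3.73 in Mll3/4SET mock. The other phosphatase gene, Pdp2, was 2.07-fold (1.78 to 2.41) and 1.75-fold lower (1.46 to 2.11). Pdpr, the gene of a phosphatase regulatory subunit, was 1.52-fold (1.36 to 1.70) and 1.17-fold lower (1.04 to 1.30). On the log2(RPKM + 1) scale both were under the limit in each line.

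Of the pyruvate kinase and transport genes, 10 of 11 were measured. In LSL-K4M 5 were lower, in Mll3/4SET 4 were, and none was higher in either line, with medians of -1.05 and -0.90. Pklr, the liver and red cell pyruvate kinase, had 0 reads in all 4 libraries. Both genes of the carrier that brings pyruvate into mitochondria were lower. Mpc1, listed as Brp44l, was at 5.27 RPKM in LSL-K4M 4OHT against 22.1 in LSL-K4M mock (4.19-fold lower, 3.39 to 5.21), and at 1.42 in Mll3/4SET 4OHT against 14.1 in Mll3/4SET mock (9.88-fold, 6.69 to 15.1). Mpc2, listed as Brp44, was 2.69-fold (2.52 to 2.87) and 3.76-fold lower (3.27 to 4.33). The citrate carrier gene Slc25a1 was 3.30-fold (3.17 to 3.43) and 2.98-fold lower (2.78 to 3.19), and the dicarboxylate carrier gene Slc25a10 was 3.14-fold (2.99 to 3.31) and 6.58-fold lower (5.85 to 7.42). Slc16a1, the monocarboxylate transporter MCT1, was 2.66-fold lower (2.48 to 2.85) in LSL-K4M and 1.94-fold lower (1.82 to 2.06) in Mll3/4SET, there under the limit.

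Of 16 other enzymes that make or use pyruvate, lactate or acetyl-CoA, 12 were measured. In LSL-K4M 7 were lower, in Mll3/4SET 6 were, and none was higher in either line; the medians were -1.13 and -1.49. Ldhc, Ldhal6b, Me3 and Acss1 were not measured. Gpt, which exchanges pyruvate and alanine, was 6.47-fold (5.36 to 7.87) and 12.6-fold lower (9.34 to 17.3). ATP citrate lyase (Acly), which makes cytosolic acetyl-CoA from citrate, was at 199.8 RPKM in LSL-K4M 4OHT against 871 in LSL-K4M mock and at 34.7 in Mll3/4SET 4OHT against 155 in Mll3/4SET mock, 4.36-fold (4.29 to 4.43) and 4.48-fold lower (4.31 to 4.65). Me1, the malic enzyme that yields NADPH, was 4.12-fold (3.99 to 4.25) and 9.06-fold lower (8.50 to 9.66), and the acetyl-CoA synthetase gene Acss2 3.86-fold (3.70 to 4.03) and 7.16-fold lower (6.32 to 8.14). Pck1, the cytosolic enzyme of glyceroneogenesis, was at 1.46 RPKM in LSL-K4M 4OHT against 1.43 in LSL-K4M mock, while in Mll3/4SET it was at 0.0705 RPKM (4 reads) with 4OHT against 9.58 RPKM (558 reads) in mock, 136-fold lower (52.8 to 500.3).

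The related 2-oxoacid dehydrogenase complexes hold a gene that was higher in both lines under the 2-fold rule. Ogdhl, which encodes a 2-oxoglutarate dehydrogenase-like E1, was at 16.3 RPKM in LSL-K4M 4OHT against 2.93 in LSL-K4M mock (5.56-fold higher, 4.81 to 6.45) and at 13.3 in Mll3/4SET 4OHT against 1.89 in Mll3/4SET mock (7.03-fold higher, 5.90 to 8.42). Of the 9 genes, 3 were lower in LSL-K4M, 4 were in Mll3/4SET, and the median was -0.85 in each line. The branched-chain E1 genes Bckdhb (3.74-fold, 3.21 to 4.38, and 3.03-fold, 2.66 to 3.47) and Bckdha (2.46-fold, 2.25 to 2.69, and 2.80-fold, 2.53 to 3.11) were lower in both lines. Ogdh itself was 2.08-fold lower (2.01 to 2.16) in LSL-K4M and under the limit in Mll3/4SET, while Dbt (3.50-fold, 3.19 to 3.84) and Dlst (2.10-fold, 2.00 to 2.21) were lower in Mll3/4SET and under the limit in LSL-K4M.

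**Figure D4:**
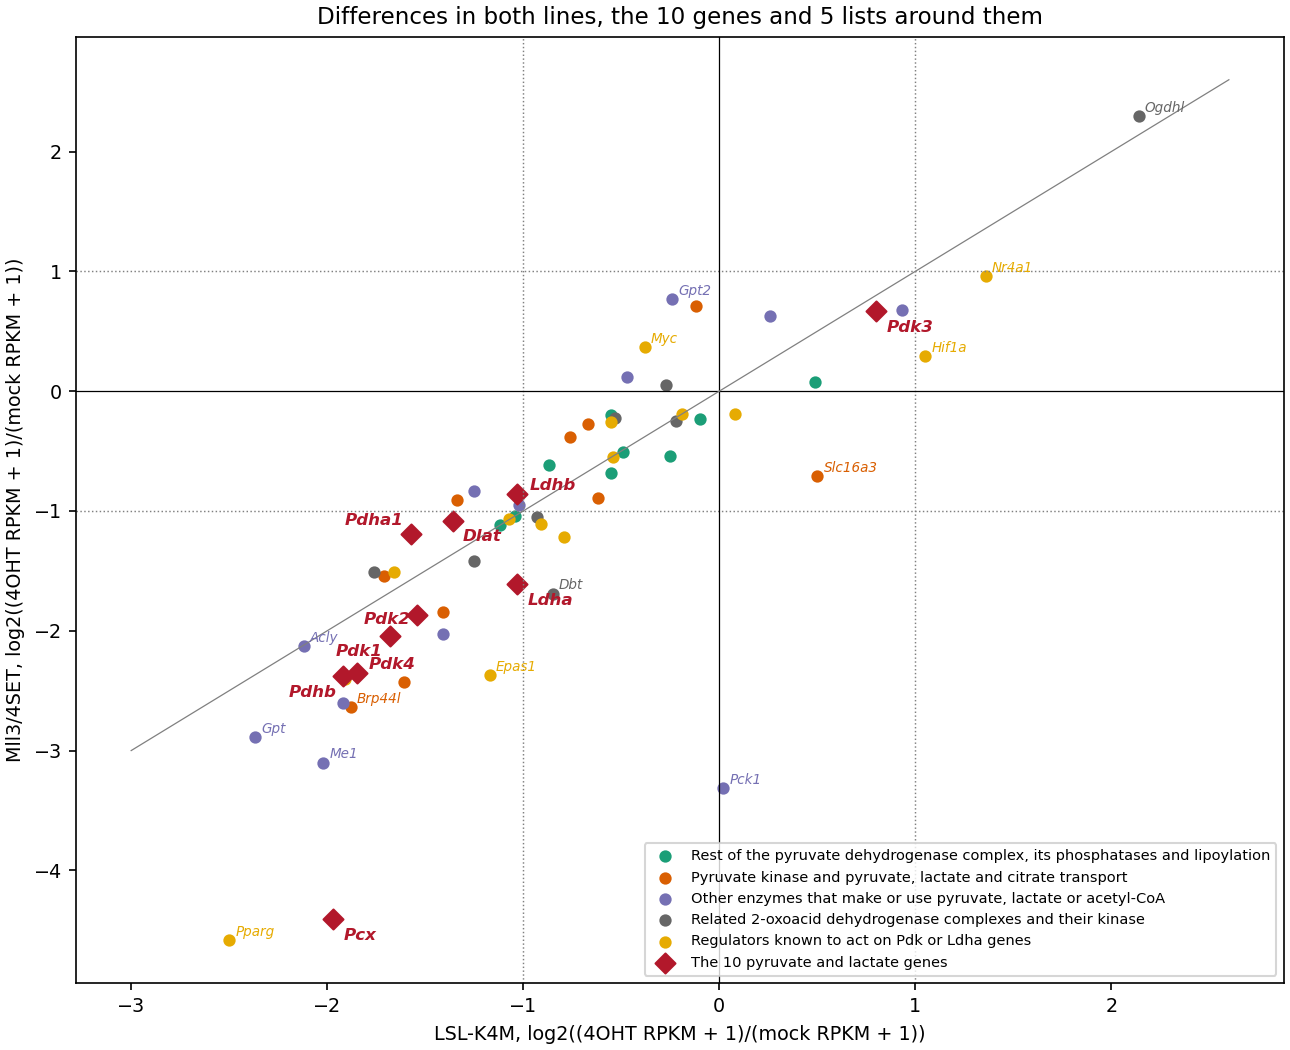
Log2((4OHT RPKM + 1)/(mock RPKM + 1)) in LSL-K4M (x axis) and in Mll3/4SET (y axis) of the 10 genes (diamonds) and of the measured genes of 5 lists around them (circles); dotted lines mark 2-fold and the slanted line marks equal differences. Pcx lies far below that line, Pdk3 is in the upper right near Hif1a, and Ogdhl is past 2-fold higher in both lines.

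Of 14 regulators known to act on Pdk or Ldha genes, 5 were lower and 2 higher in LSL-K4M, and 7 were lower and none higher in Mll3/4SET, with medians of -0.67 and -0.81. Pparg, the master regulator of adipogenesis, was at 22.9 RPKM in LSL-K4M 4OHT against 134 in LSL-K4M mock (5.84-fold lower, 5.45 to 6.27) and at 3.23 in Mll3/4SET 4OHT against 100.3 in Mll3/4SET mock (31.0-fold lower, 25.9 to 37.4); it is also on the adipocyte list. The coactivator gene Ppargc1a was at 0.948 RPKM in LSL-K4M 4OHT against 6.33 in LSL-K4M mock (6.68-fold lower, 5.59 to 8.04) and at 0.143 in Mll3/4SET 4OHT against 5.02 in Mll3/4SET mock (35.2-fold lower, 22.6 to 58.0). The HIF subunit genes parted. Hif1a was at 99.3 RPKM in LSL-K4M 4OHT against 47.5 in LSL-K4M mock (2.09-fold higher, 2.02 to 2.16) and at 113 in Mll3/4SET 4OHT against 92.5 in Mll3/4SET mock (1.22-fold higher, 1.19 to 1.26, under the limit). Epas1, which encodes HIF-2 alpha, was at 9.39 RPKM in LSL-K4M 4OHT against 22.4 in LSL-K4M mock (2.39-fold lower, 2.23 to 2.56) and at 1.34 in Mll3/4SET 4OHT against 11.1 in Mll3/4SET mock (8.31-fold lower, 7.03 to 9.87). The early response gene Nr4a1 was at 7.72 RPKM in LSL-K4M 4OHT against 2.40 in LSL-K4M mock (3.22-fold higher, 2.64 to 3.96) and at 10.3 in Mll3/4SET 4OHT against 4.79 in Mll3/4SET mock (2.15-fold higher, 1.85 to 2.50). In Mll3/4SET its log2 difference of 0.96 was under the limit, but with a pseudocount of 0.1 or 0.001 RPKM it was 1.09 or 1.10 and past it. With TMM, median-ratio or upper-quartile scaling, 1 of the 14, Nr4a1, was higher in LSL-K4M, and Hif1a was under the limit there, with log2 differences of 0.92, 0.95 and 0.94 against 1.05 on the RPKM as deposited.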

How the data were processed

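RNA was taken with Trizol and mRNA selected on Dynabeads before Illumina library preparation, per the labels' protocols. The mouse build mm9 and SICER are named in the submitters' processing notes; aligner, counter and use of strand are not given in the sources used here, so overlapping and antisense genes cannot be told apart. Per the file headers, the authors' tables, 1 for each line, give a read count and an RPKM for each RefSeq transcript and library. Deposited counts are whole, and each deposited RPKM is its count times a constant of the transcript and library. The authors' ratio of mock to 4OHT equals (mock RPKM + 0.001)/(4OHT RPKM + 0.001) in 100.0% of rows within 1e-06, and a deposited column of another kind counts the libraries at 1 RPKM or more; neither was used. The other 6 libraries of the series, from ChIP-seq and input DNA, were not analysed here.

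The tables hold 29082 transcripts. For each name the row with the highest mean RPKM was used (2 of the 10 genes, Ldha and Pcx, have 2 rows). Values of 4OHT over mock were set as log2((RPKM + 1)/(RPKM + 1)), and calls were made at 2-fold where either library reached 1 RPKM, with intervals of the reads (scipy 1.17.1) that cover counting error only, since reads carry no molecular identifiers. The genes and lists were chosen with earlier results of these data known. Named genes are all 10 members, up to 4 genes of each list and line by size among those past 2-fold, and the 3 genes most like Pcx, and 1 gene under this rule is not reported here; Pdp1, Ogdh, Dlst, Nr4a1 and others outside that rule were named after their values were seen. Symbols were matched to RefSeq for 98.0% of names, and all 10 genes have a promoter entry. The calling rule and the intervals were tried on data simulated with counting error only, which says nothing of variation between cultures. Other settings tried were other pseudocounts, minimums, scalings (edgeR 4.0.16, DESeq2 1.42.0), rows per gene and a call at 1.5-fold. Python 3.11.15 and R 4.3.3 were used.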

Additional observations from a re-analysis of the deposited data

Results flagged for a closer look

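The following genes around the pyruvate branch point had differences of opposite sign in the lines, each under the 2-fold limit and with a counting interval that did not hold 1; with 1 library per group, the difference between the lines was not tested. Slc16a3, the lactate exporter MCT4, had a log2 difference of 0.50 in LSL-K4M, at 22.7 RPKM with 4OHT against 15.8 in mock, and of -0.71 in Mll3/4SET, at 13.0 RPKM with 4OHT against 21.9 in mock. Pck2, the mitochondrial phosphoenolpyruvate carboxykinase, had -0.47 in LSL-K4M, at 24.6 RPKM with 4OHT against 34.5 in mock, and 0.12 in Mll3/4SET, at 52.1 RPKM with 4OHT against 47.8 in mock; the Mll3/4SET value equals the median of all genes there (0.12) and was 0.06 with upper-quartile, 0.00 with median-ratio and -0.02 with TMM scaling, so the opposite sign depends on the scaling. The signs of Slc16a3, Gpt2 and Myc were kept under those scalings. Gpt2, the mitochondrial alanine aminotransferase, had -0.24 in LSL-K4M, at 7.89 RPKM with 4OHT against 9.52 in mock, and 0.77 in Mll3/4SET, at 18.0 RPKM with 4OHT against 10.2 in mock. Myc, a regulator of Ldha, had -0.38 in LSL-K4M, at 9.22 RPKM with 4OHT against 12.3 in mock, and 0.37 in Mll3/4SET, at 28.2 RPKM with 4OHT against 21.5 in mock.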

How the results depend on the processing

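No paired analysis was possible because each group holds 1 library, and for the same reason no replicate could be left out. Over the 5 pseudocounts and scalings tried, no log2 difference of the 10 genes changed sign; in LSL-K4M 29 of 50 values stayed within their counting interval and 21 moved out of it, and in Mll3/4SET 31 stayed and 19 moved. At a call of 1.5-fold, 1 of the 10 genes (Pdk3) was higher in each line, and over all genes 1583 were lower and 1945 higher in LSL-K4M, while Mll3/4SET had 1584 lower and 1961 higher (at 2-fold, 754, 641, 903 and 631). With a pseudocount of 0.1 RPKM LSL-K4M had 1018 higher genes and Mll3/4SET 1013; with 0.001 RPKM these were 1075 and 1083. In the lists, the 1.5-fold call gave 1 and 3 higher other enzymes, 8 and 7 lower pyruvate kinase and transport genes (LSL-K4M, then Mll3/4SET), 5 lower related dehydrogenase genes in LSL-K4M and 4 lower genes of the rest of the complex in Mll3/4SET. That call and both smaller pseudocounts gave 1 higher transport gene and 1 higher regulator (Nr4a1) in Mll3/4SET. TMM, median-ratio and upper-quartile scaling left 1 higher regulator (Nr4a1, without Hif1a) in LSL-K4M. The smallest counts, 59 reads of Pdk4 and 4 of Pck1 in Mll3/4SET 4OHT, limit the precision of those ratios.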

Other observations

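Pdk3 was set beside the genes with the most similar levels in the 4 libraries, a choice made after its values were seen. Of 5297 other genes at 10 RPKM or more on average, the nearest were Abhd4, which encodes a lipid hydrolase of the abhydrolase family, the scaffold gene Dlg5 and the fucosyltransferase gene Fut11. Abhd4 was at 52.0 RPKM in LSL-K4M 4OHT against 29.5 in LSL-K4M mock and at 47.9 in Mll3/4SET 4OHT against 29.4 in Mll3/4SET mock (distance 0.0324). The 4OHT over mock ratio of Dlg5 was 1.90 (1.79 to 2.02) in LSL-K4M and 1.64 (1.54 to 1.75) in Mll3/4SET (distance 0.0501). Fut11 was at 14.1 RPKM in LSL-K4M 4OHT against 8.02 in LSL-K4M mock and at 13.1 in Mll3/4SET 4OHT against 7.91 in Mll3/4SET mock (0.0519). As with Pdk3, all stayed under 2-fold.

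The muscle form of pyruvate kinase, Pkm, listed as Pkm2, was at 207 RPKM in LSL-K4M 4OHT against 351 in LSL-K4M mock and at 168 in Mll3/4SET 4OHT against 218 in Mll3/4SET mock, under the limit in both.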
